A study of Danio rerio with 16 samples.

Results

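Retinoic acid is made and destroyed by a short chain of enzymes, and 10 zebrafish genes of that chain were followed across ploidy and estrogen exposure in the testis. They were picked by name from the 32520 genes of the deposited count table: stra6, rdh10a, rdh10b, dhrs3a, dhrs3b, aldh1a2, aldh1a3, cyp26a1, cyp26b1 and cyp26c1. RNA came from testes of fish of the AB strain. The groups were diploid controls, diploids given EE2, the synthetic estrogen 17α-ethinylestradiol, triploid controls and triploids given EE2, with 4 libraries each. Dose, length of exposure, age of the fish and the number of fish behind a library are not stated by the sources used here.

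Retinol, the alcohol form of vitamin A, enters cells with the help of the membrane receptor Stra6. Rdh10 enzymes oxidise it to retinal, Dhrs3 enzymes reduce retinal back to retinol, and Aldh1a enzymes oxidise retinal irreversibly to retinoic acid. Cyp26 enzymes of the cytochrome P450 family then break retinoic acid down. Retinoic acid binds nuclear receptors that pair with retinoid X receptors, and in the mouse it drives spermatogonial differentiation and entry into meiosis, while Cyp26b1 keeps it low in the fetal testis.

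Library totals ran from 7052508 to 17369549 read pairs. Triploid EE2 replicate 2 is called an outlier in its own title and was left out of the fit, so that group had 3 libraries and the fit 15. Its values are given where they bear on a result. The library of diploid control replicate 1 differed from the rest in composition, with 13.3% of read pairs on the signal recognition particle RNA rn7sl1 against 4.71% to 7.77% in the other 15 libraries and 6.86% on mitochondrial genes against 1.63% to 3.01%. The 5 liver genes, 0 called in any comparison, varied within groups and summed to between 25.6 and 361.9 CPM in the 15 libraries fitted. Triploid EE2 replicate 4 was the highest of these, where the other triploid EE2 libraries fitted had 52.8 and 62.7 CPM. Triploid EE2 replicate 2, left out of the fit, had 413.3 CPM. Markers of testis were present in the 15 libraries fitted: 8 germ cell genes summed to between 3229 and 4610 CPM (counts scaled to library size and composition), 8 Sertoli cell genes to between 470.4 and 1983 CPM, and 5 ovarian genes to between 9.30 and 16.1 CPM. None of the marker genes of these lists was at 0 in all 15 libraries. In such bulk samples, fewer cells of a type and less RNA per cell cannot be told apart.

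All 10 genes passed the filter on low counts and were tested. Levels differed widely between genes when set per length, in RPKM (read pairs scaled to exon length and library size). Over the 15 libraries the mean was 38.0 RPKM for aldh1a2, higher than 90.9% of the genes tested, and 24.4 RPKM for cyp26a1, higher than 84.7%. The retinol dehydrogenases followed, with rdh10b at 7.96 and rdh10a at 4.82 RPKM. Lower still were dhrs3b at 2.76, stra6 at 2.16, aldh1a3 at 1.96, dhrs3a at 1.73 and cyp26b1 at 0.988 RPKM. The lowest was cyp26c1 at 0.319 RPKM, with 5 to 39 read pairs per library. Thus 1 gene made up most of the RNA of each arm: aldh1a2 was 79.4% to 97.1% of the summed Aldh1a RPKM, and cyp26a1 86.0% to 98.3% of the summed Cyp26 RPKM, in the 15 libraries.

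Most of the 10 genes lie apart from each other in the genome, but aldh1a3 (ENSDARG00000076933, 9721385 to 9803154), cyp26b1 (ENSDARG00000077121, 25323742 to 25348597) and aldh1a2 (ENSDARG00000053493, 30326184 to 30367650) are all on chromosome 7 of the GRCz11 build. The gene cyp26a1 (ENSDARG00000033999) is on chromosome 12, from 8954761 to 8958353, and dhrs3a (ENSDARG00000044982) on chromosome 23, from 21663631 to 21674679. The exons of rdh10a (ENSDARG00000058730) span 13251480 to 13272843 on chromosome 24. None of the 10 shared exon bases with another gene on its own strand, so no read pairs were lost to that ambiguity. On the opposite strand, cyp26b1 and cyp26c1 each overlapped the exons of 1 other gene. Over the 16 libraries the gene opposite cyp26b1 had 1878 read pairs against 747 for cyp26b1, and that opposite cyp26c1 had 537 against 257. The counting used strand, per the file headers, but the part of wrongly stranded read pairs in these counts was not tested.

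**Figure D1:**
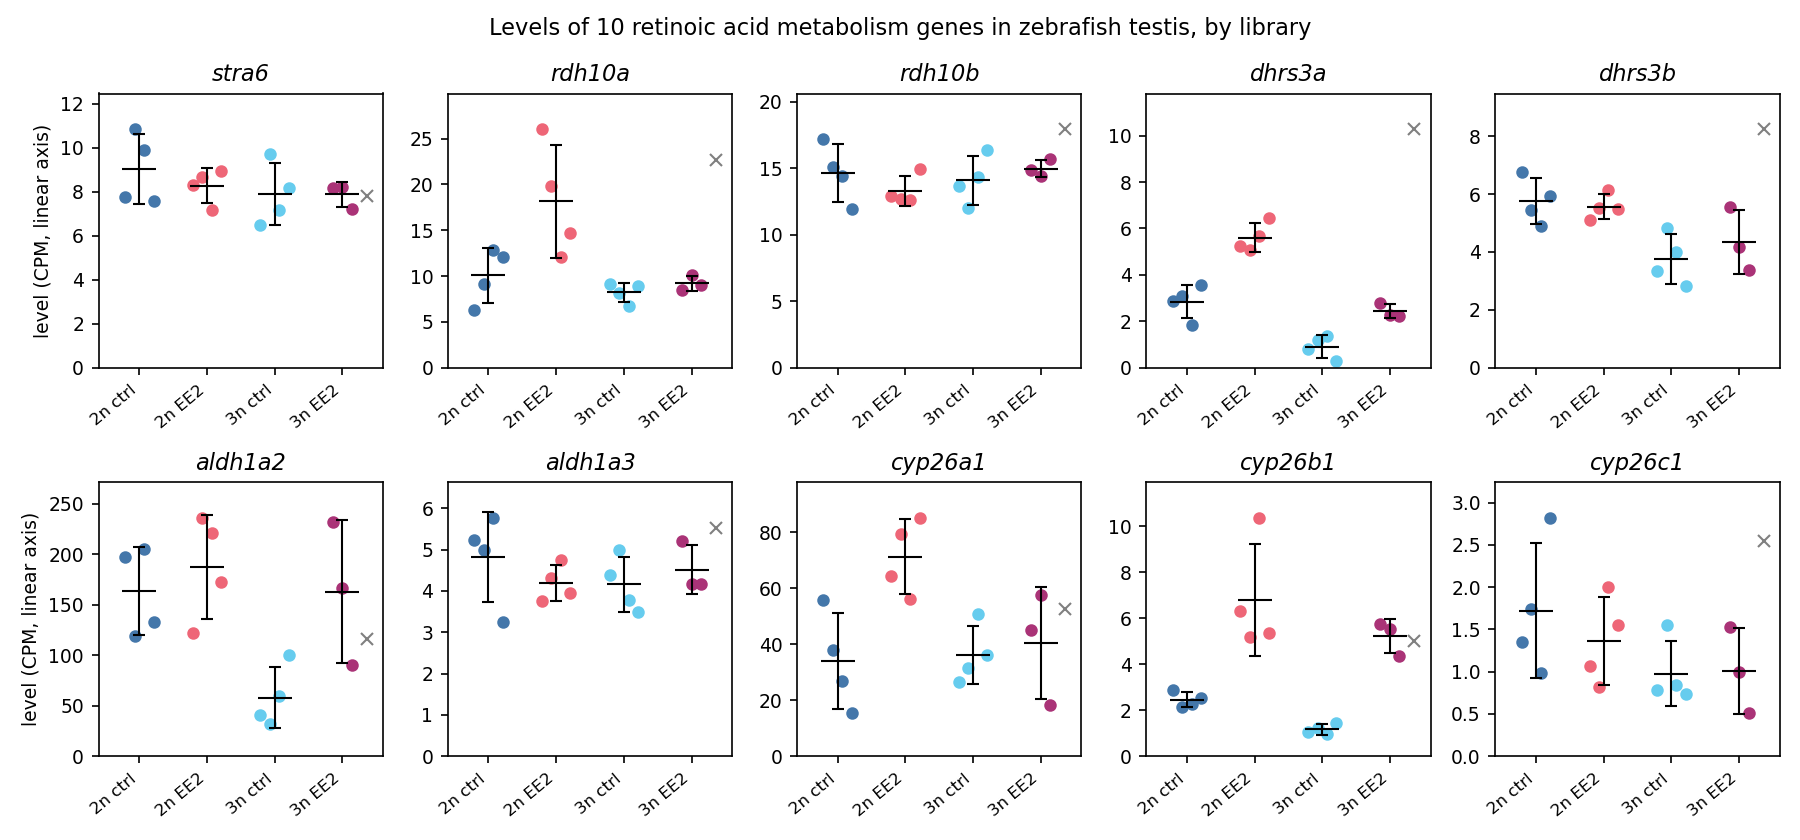
Level of each gene in every library, in CPM on linear axes that start at 0, for diploid (2n) and triploid (3n) controls and EE2 groups. Points are libraries, bars are the mean and SD of the libraries fitted, and the grey cross is triploid EE2 replicate 2, left out of the fit. The 4 triploid controls lie below the 4 diploid controls for dhrs3a, dhrs3b, aldh1a2 and cyp26b1, and cyp26b1 is higher after EE2 in both ploidies.

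Triploid and diploid controls were compared first, to ask how ploidy bears on the testis without hormone. Triploid testis had less RNA of aldh1a2, the retinoic acid synthesising gene with the most RNA here, and less of dhrs3a, which returns retinal to retinol. Neither cyp26a1 nor any of the other members passed the test. By edgeR's quasi-likelihood test with Benjamini-Hochberg adjustment over 23007 genes, 2 of the 10 genes were called lower in triploids and 0 higher. Over all genes tested, 2.74% were called, 2.16% lower and 0.574% higher. The median log2 change was -0.44 for the 10 genes and -0.04 for all genes.

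For aldh1a2, diploid controls 1 to 4 stood at 197, 119, 206 and 133 CPM, and triploid controls at 40.6, 32.0, 59.3 and 100.2 CPM. Every triploid control was below every diploid control, although triploid replicate 4 came close to the lowest diploid. The log2 change was -1.47 ± 0.36 (SE, adjusted p = 0.046), a 2.78-fold lower level. That call was narrow. It was lost without triploid control replicate 1, 2 or 3 (adjusted p = 0.14, 0.11 and 0.11) and when replicate 1, 3 or 4 of the diploid controls was omitted (adjusted p = 0.097, 0.12 and 0.066), while the log2 change stayed between -1.87 and -1.27 in the 8 omissions. It was lost as well without the low-count filter (adjusted p = 0.068), with the control groups fitted alone (adjusted p = 0.076) and with both diploid replicates numbered 1 left out (adjusted p = 0.085).

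For dhrs3a, diploid controls 1 to 4 stood at 2.87, 3.09, 1.85 and 3.55 CPM, and triploid controls at 0.788, 1.21, 1.37 and 0.275 CPM. The groups did not overlap. The log2 change was -1.62 ± 0.34 (SE, adjusted p = 0.017), a 3.08-fold lower level. Counts were small, from 3 to 14 read pairs in the triploid controls, and the 3 read pairs of triploid control replicate 4 carry an exact 95% Poisson interval of 0.619 to 8.77, which covers counting error only. Omitting triploid control replicate 1 (adjusted p = 0.067) or diploid control replicate 4 (adjusted p = 0.061) ended the call. So did fitting with the titled outlier included (adjusted p = 0.16) and fitting the control groups alone (adjusted p = 0.1), with log2 changes of -1.65 and -1.61.

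Its paralog dhrs3b and the degrading enzyme cyp26b1 also had groups that did not overlap but missed the threshold. The level of dhrs3b was 5.76 ± 0.784 CPM in diploid and 3.75 ± 0.861 CPM in triploid controls (SD, n = 4 each), and the fitted difference on the log2 scale was -0.59 ± 0.20 (SE, adjusted p = 0.15). For cyp26b1 the level was 2.46 ± 0.32 CPM in diploid and 1.17 ± 0.225 CPM in triploid controls (SD, n = 4 each), and the fitted difference was -1.03 ± 0.27 in log2 (SE, adjusted p = 0.055). Of the 10 genes, 4 were lower in triploid controls with no overlap, against 7.38% of all genes tested. The other degrading enzymes had wide intervals. For cyp26a1 the log2 change was 0.12 (95% interval -0.67 to 0.92) and for cyp26c1 it was -0.81 (95% interval -1.72 to 0.096).

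Uptake, the rdh10b step and aldh1a3 had the narrowest intervals around 0 for ploidy in controls. For stra6 the log2 change was -0.18 (95% interval -0.53 to 0.18), for rdh10b -0.03 (95% interval -0.31 to 0.26) and for aldh1a3 -0.17 (95% interval -0.60 to 0.26). Across the 15 libraries the highest level of rdh10b was 1.44 times the lowest, that of stra6 1.67 times and that of aldh1a3 1.77 times, whereas the ratio was 7.39 for aldh1a2 and 10.9 for cyp26b1.

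Sertoli cell markers moved with ploidy as well. Of the 8 Sertoli genes, 4 were called lower in triploid controls and 0 higher, and their sum ran from 470.4 to 650.8 CPM there against 1136 to 1628 CPM in diploid controls. The 5 smooth muscle genes were chosen as markers of the peritubular wall, but bulk RNA does not place them there. They summed to between 351.2 and 434.5 CPM in triploid and between 432.9 and 766.7 CPM in diploid controls, with 1 of 5 called lower. Leydig cell genes, 0 of 6 called, summed to 956.1 to 1538 CPM in triploid and 978.3 to 3618 CPM in diploid controls. The part of these cell types in the lower aldh1a2 and dhrs3a was not tested.

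EE2 was compared with control in diploids and in triploids to ask how the estrogen changed the testis of each. The breakdown enzyme gene cyp26b1 rose in both, 2.84-fold in diploids and 4.41-fold in triploids, and was the 1 member called in each. Over all genes tested, 2.36% were called in diploids, 1.94% higher and 0.422% lower, and 0.104% in triploids, 0.0609% higher and 0.0435% lower. In triploids cyp26b1 had rank 3 by p-value among the 23007 genes. The median log2 change of the 10 genes was 0.09 in diploids and 0.15 in triploids, beside -0.01 and 0.01 for all genes.

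In diploids, cyp26b1 stood at 2.87, 2.14, 2.29 and 2.53 CPM in control replicates 1 to 4 and at 6.30, 5.19, 10.4 and 5.37 CPM in EE2 replicates 1 to 4. The groups did not overlap, and replicate 3 was the highest of the EE2 libraries. Read pairs ran from 17 to 35 in the controls and from 45 to 181 in the EE2 libraries. On the log2 scale the rise was 1.5 ± 0.24 (SE, adjusted p = 0.0043), and it stayed called in the 8 omissions of a single library (log2 1.21 to 1.62).

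In triploids, cyp26b1 stood at 1.05, 1.21, 0.948 and 1.47 CPM in control replicates 1 to 4 and at 5.76, 5.55 and 4.38 CPM in EE2 replicates 1, 3 and 4. The library titled an outlier was within the range of the other EE2 libraries, at 5.01 CPM. The log2 change was 2.14 ± 0.27 (SE, adjusted p = 0.0087). Counts were small, from 9 to 16 read pairs in the triploid controls and 43 to 83 in the EE2 libraries fitted. Omission of triploid EE2 replicate 1 ended the call (log2 2.06, adjusted p = 0.06), and the other 6 omissions kept it. The rise was larger in triploids by a log2 of 0.64 ± 0.36, but that interaction did not pass (SE, adjusted p = 0.94, 95% interval -0.14 to 1.41).

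Levels of cyp26b1 in the 2 EE2 groups overlapped, from 5.19 to 10.4 CPM in diploids and 4.38 to 5.76 CPM in triploids, and the difference between ploidies under EE2 was a log2 of -0.39 (95% interval -0.93 to 0.14). The order of its group means was diploid EE2, triploid EE2, diploid control and triploid control. Of the neighbours in that order, the EE2 groups overlapped, the triploid EE2 and diploid control groups did not, and neither did the control groups.

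The breakdown gene with the most RNA, cyp26a1, behaved less evenly. It stood at 55.7, 37.8, 26.8 and 15.6 CPM in diploid controls 1 to 4 and at 64.4, 79.5, 56.2 and 85.2 CPM in diploid EE2 replicates 1 to 4. The EE2 libraries were all above the controls, by a margin of under 1 CPM between EE2 replicate 3 and control replicate 1. Its log2 difference was 1.1 ± 0.37 (SE, adjusted p = 0.15), with a 95% interval of 0.30 to 1.89. In triploids it stood at 26.4, 31.4, 50.8 and 36.0 CPM in controls 1 to 4 and at 45.1, 57.7 and 18.3 CPM in EE2 replicates 1, 3 and 4, so the groups overlapped. The log2 change there was 0.15 ± 0.40 (SE, adjusted p = 1.0), with a 95% interval of -0.70 to 1.00. The titled outlier stood at 52.6 CPM, and with it included the edgeR log2 change was 0.27 (adjusted p = 0.87).

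Among the enzymes of retinol and retinal, rdh10a stood at 6.25, 9.18, 12.9 and 12.1 CPM in diploid controls 1 to 4 and at 26, 19.8, 12 and 14.7 CPM in diploid EE2 replicates 1 to 4. The ranges overlapped at 12 to 12.9 CPM, and the log2 change was 0.85 ± 0.24 (SE, adjusted p = 0.085 by edgeR). DESeq2's Wald test called it (adjusted p = 0.026), and with both diploid replicates numbered 1 left out the edgeR value was 0.46 (adjusted p = 0.24). In triploids it was 8.21 ± 1.07 CPM in controls (SD, n = 4) and 9.21 ± 0.836 CPM after EE2 (SD, n = 3), a log2 change of 0.15 (95% interval -0.41 to 0.72), or 0.61 with the titled outlier included (adjusted p = 0.52).

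For dhrs3a, EE2 libraries were above controls in both ploidies without overlap, yet neither change was called by edgeR. Diploid EE2 replicates 1 to 4 stood at 5.23, 5.06, 5.68 and 6.45 CPM, and the fitted log2 difference from controls was 0.98 ± 0.31 (SE, adjusted p = 0.11). Triploid EE2 replicates 1, 3 and 4 stood at 2.77, 2.28 and 2.24 CPM, and the difference was 1.41 ± 0.36 in log2 (SE, adjusted p = 0.34). DESeq2's Wald test called both, with adjusted p = 0.014 in diploids and 0.027 in triploids. Neither was called by limma-voom (adjusted p = 0.06 and 0.32) or by edgeR with the replicate number as a block (adjusted p = 0.19 and 0.63). The library titled an outlier was far above, at 10.3 CPM, and with it included the log2 difference in triploids was 2.27 (adjusted p = 0.13). In diploids 3 of the 10 genes were higher under EE2 without overlap, against 5.11% of all genes, and in triploids 2 of the 10, against 5.29%.

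The synthesising enzyme aldh1a2 was not called with EE2 in diploids, where controls had 164 ± 44.0 CPM and EE2 libraries 188 ± 51.8 CPM (SD, n = 4 each), which differed by a log2 of 0.21 (95% interval -0.54 to 0.97). In triploids EE2 replicates 1, 3 and 4 stood at 232, 167 and 89.9 CPM, against 32.0 to 100.2 CPM in controls, so that replicate 4 overlapped the controls. The log2 change was 1.48 ± 0.38 (SE, adjusted p = 0.37 by edgeR's quasi-likelihood test). DESeq2's Wald test called it (adjusted p = 0.027), but limma-voom (adjusted p = 0.34) and edgeR with the replicate number as a block (adjusted p = 0.72) did not. The titled outlier stood at 115.7 CPM, above all triploid controls. With it included the edgeR log2 change in triploids was 1.38 (adjusted p = 0.19). The effect of EE2 was larger in triploids by a log2 of 1.27 ± 0.52 (95% interval 0.15 to 2.38), with an unadjusted p = 0.028 by edgeR and an adjusted p = 0.93. No gene of 23007 was called for the interaction by edgeR, where 1223 had an unadjusted p under 0.05. DESeq2 called 43 genes and 0 of the 10, and limma-voom 0 genes.

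**Figure D2:**
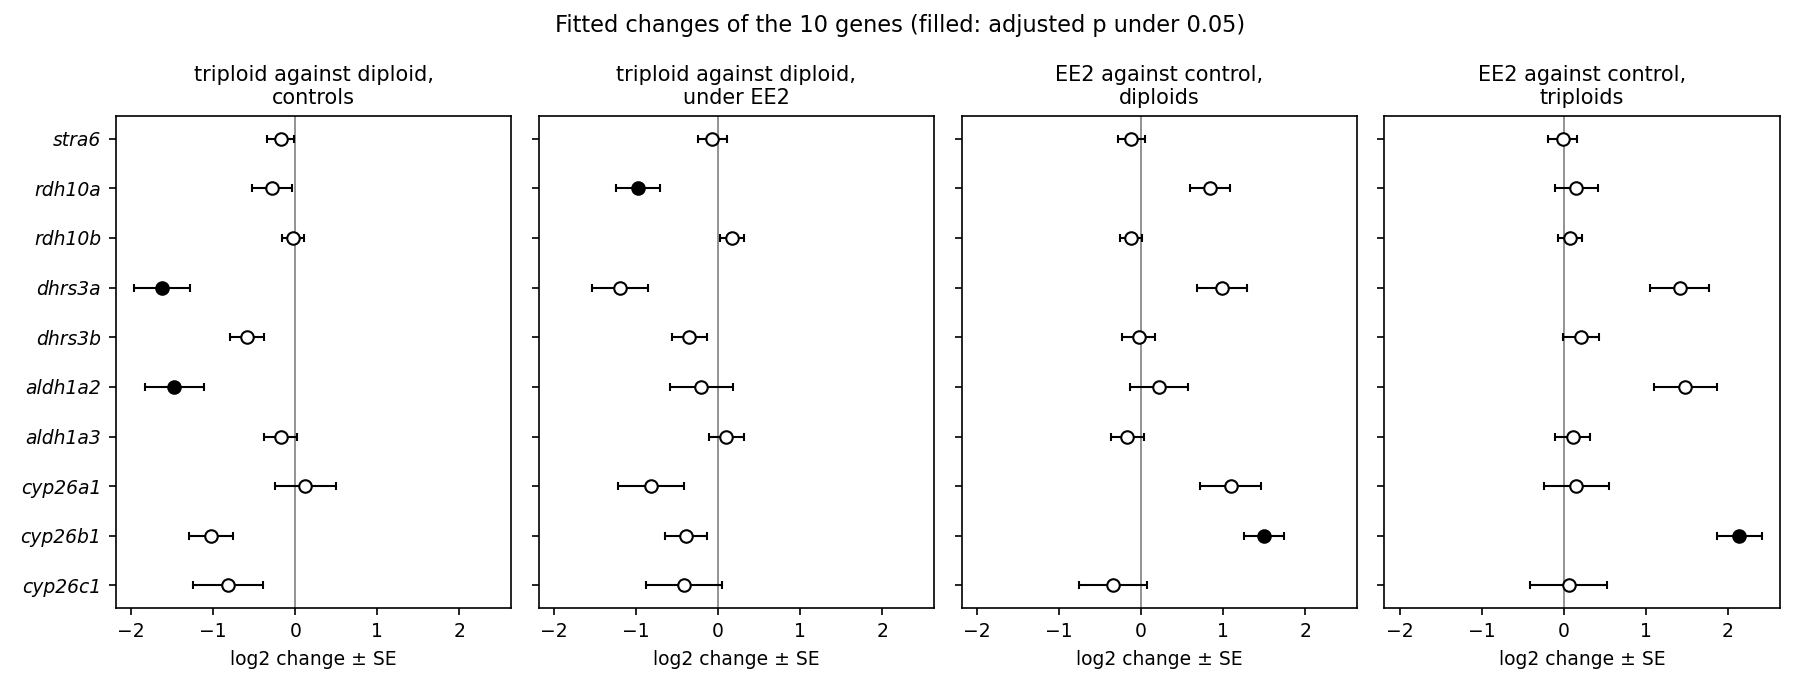
Fitted log2 change with its SE for each gene in 4 comparisons, from edgeR. Filled points have an adjusted p under 0.05 over all genes tested: dhrs3a and aldh1a2 for ploidy in controls, rdh10a for ploidy under EE2, and cyp26b1 for EE2 in diploids and in triploids.

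Markers of several cell types moved with EE2. The 5 smooth muscle genes, all called higher in diploids, summed to between 1524 and 1948 CPM in diploid EE2 libraries against 432.9 to 766.7 CPM in diploid controls. In triploids they summed to between 694.6 and 836.8 CPM after EE2 against 351.2 to 434.5 CPM, with 0 of 5 called. The 6 Leydig cell genes, 5 called lower in diploids and 2 in triploids, summed to 159.6 to 550.0 CPM in diploid and 178.5 to 322.8 CPM in triploid EE2 libraries. Of 5 endothelial genes 3 were called higher in diploids, where they summed to 133.3 to 232.4 CPM against 108.9 to 167.4 CPM in controls, and 0 in triploids. Of 4 erythrocyte genes 1 was called higher in diploids (median log2 3.4), where diploid EE2 replicate 1 summed to 739.3 CPM, the other 3 EE2 libraries to 42.8 to 59.2 CPM and the controls to 22.7 to 30.8 CPM. The 3 macrophage genes, 0 called (median log2 1.21), summed to 44.0 to 122.7 CPM in diploid EE2 libraries, highest in replicate 1, and 24.7 to 45.6 CPM in diploid controls. In triploids 0 erythrocyte and 0 macrophage genes were called. Sertoli cell genes had 0 of 8 called with EE2 in either ploidy. The 8 germ cell genes, 0 called in either ploidy, summed to 3229 to 3780 CPM in diploid EE2 libraries against 3904 to 4351 CPM in diploid controls. In triploids they summed to 3784 to 4073 CPM after EE2 against 4230 to 4610 CPM in controls. The part of these shifts in the rise of cyp26b1 was not tested.

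Under EE2, triploids were compared with diploids, and 1 of the 10 genes, rdh10a, was called lower in triploids, with 0 higher. Over all genes tested 5.82% were called, 4.77% lower and 1.05% higher. Triploid EE2 replicates 1, 3 and 4 stood at 8.46, 10.1 and 9.06 CPM for rdh10a, all below the 12 to 26 CPM of diploid EE2. The log2 change was -0.98 ± 0.27 (SE, adjusted p = 0.045). The library titled an outlier stood at 22.7 CPM, and with it included the log2 change was -0.52 (adjusted p = 0.59). It was not called either without triploid EE2 replicate 1, 3 or 4 (adjusted p = 0.14, 0.11 and 0.13), nor when diploid EE2 replicate 1 or 2 was omitted (adjusted p = 0.12 and 0.075). Neither limma-voom (adjusted p = 0.057), the fit without the low-count filter (adjusted p = 0.052) nor that of the compared groups alone (adjusted p = 0.081) called it, while DESeq2 did (adjusted p = 0.01).

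The difference in dhrs3a was of similar size under EE2, at a log2 of -1.20 ± 0.34 (SE, adjusted p = 0.051), with triploid EE2 replicates 1, 3 and 4 all below the diploid EE2 libraries. DESeq2's Wald test (adjusted p = 0.0029), limma-voom (adjusted p = 0.025) and edgeR on the compared groups alone (adjusted p = 0.02) called it. It was not called by edgeR with the replicate number as a block (adjusted p = 0.11) or without the low-count filter (adjusted p = 0.065). Nor was it called in any of 7 omissions of a library (adjusted p = 0.061 to 0.16 by edgeR). The titled outlier, at 10.3 CPM, was above all diploid EE2 libraries, and with it included the log2 difference was -0.35 (adjusted p = 0.88). For aldh1a2 the log2 change between ploidies under EE2 was -0.21 (95% interval -1.03 to 0.61), and for cyp26a1 it was -0.82 (95% interval -1.68 to 0.040). Of the 10 genes, 2 were lower in triploids without overlap, against 12.2% of all genes. Sertoli cell genes summed to 533.6 to 630.0 CPM in triploid and 1420 to 1983 CPM in diploid EE2 libraries, with 4 of 8 called lower, and all 5 smooth muscle genes and 2 of 5 endothelial genes were called lower. Erythrocyte genes, 0 of 4 called (median log2 -2.95), summed to 24.0 to 40.9 CPM in triploid and 42.8 to 739.3 CPM in diploid EE2 libraries. Macrophage genes, 0 of 3 called, summed to 31.5 to 39.6 CPM in triploid and 44.0 to 122.7 CPM in diploid EE2 libraries. Diploid EE2 replicate 1 had the highest sum of both lists and the highest rdh10a, and the call of rdh10a ended without it, as given above. With both diploid replicates numbered 1 left out, a setting chosen after seeing the data, edgeR called rdh10a (log2 -0.75, adjusted p = 0.036). Without diploid EE2 replicate 1 alone the log2 change was the same, -0.75 (adjusted p = 0.12). Diploid control replicate 1 is not in this comparison, and enters it only through what the fit shares between groups. The part of these cell types in the level of rdh10a was not tested.

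Synthesis was set against breakdown within each library as the log2 ratio of summed Aldh1a to summed Cyp26 RPKM, with 0.1 RPKM added to each sum. It is a description of transcript levels, with no test, and not of enzyme activity or of retinoic acid. Diploid controls 1 to 4 had 0.84, 0.69, 1.93 and 1.93, so Aldh1a transcripts exceeded Cyp26 transcripts in each. Diploid EE2 replicates 1 to 4 had -0.08, 0.57, 0.89 and 0.02, and triploid controls 1 to 4 had -0.18, -0.69, -0.64 and 0.52. Triploid EE2 replicates 1, 3 and 4 had 1.31, 0.52 and 1.23, and the titled outlier 0.16.

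The mean ratio was thus highest in diploid controls, at 1.35 ± 0.674 (SD, n = 4), then 1.02 ± 0.433 in triploid EE2 (SD, n = 3), 0.35 ± 0.456 in diploid EE2 and -0.25 ± 0.563 in triploid controls (SD, n = 4 each). Neighbours in this order overlapped, whereas triploid controls lay wholly below diploid controls. Diploid EE2 overlapped diploid controls as well, with its replicate 3 at 0.89. The lowest triploid EE2 library fitted and the highest triploid control both stood at 0.52. The gap between the control groups lay on the synthesis side. Summed Aldh1a was 46.0 ± 12.1 RPKM in diploid and 17.4 ± 7.86 RPKM in triploid controls, while summed Cyp26 was 19.1 ± 9.03 and 19.8 ± 5.55 RPKM (SD, n = 4 each). In diploids the shift with EE2 lay on the breakdown side, with summed Cyp26 at 40.0 ± 6.53 RPKM after EE2 and summed Aldh1a at 52.1 ± 14 RPKM (SD, n = 4 each). In triploids it lay on the synthesis side, with summed Aldh1a at 45.6 ± 19.3 RPKM and summed Cyp26 at 23.1 ± 11 RPKM after EE2 (SD, n = 3 each). The gene that made up most of the shifted sum was not called by edgeR in either ploidy. It was cyp26a1 in diploids (adjusted p = 0.15) and aldh1a2 in triploids (adjusted p = 0.37). The direction in triploids depended on which breakdown gene was used. The mean difference with EE2 was 1.27 for the sums, but -0.34 for aldh1a2 over cyp26b1 alone. That ratio was also lower with EE2 in diploids. In it 0.1 RPKM was added to each gene, where cyp26b1 had only 0.245 to 0.378 RPKM in triploid controls. The value of -0.34 thus understates the size of the fall. The fitted log2 changes with EE2 in triploids were 1.48 for aldh1a2 and 2.14 for cyp26b1.

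**Figure D3:**
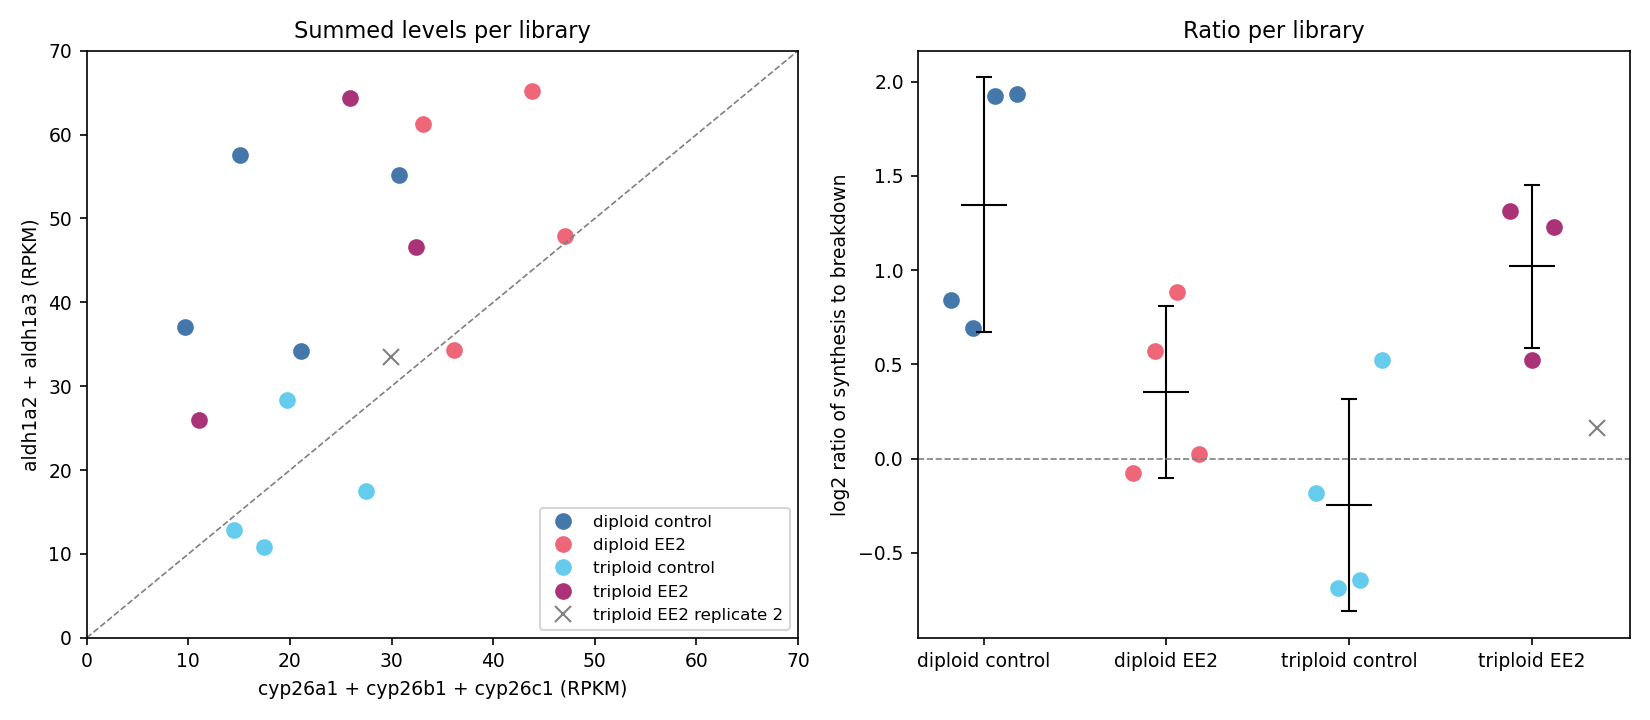
Left, summed aldh1a2 and aldh1a3 against summed cyp26a1, cyp26b1 and cyp26c1 in each library, in RPKM, with the dashed line at equal levels. Right, the log2 ratio of the sums per library with mean and SD of each group. Triploid controls have the lowest mean synthesis, with libraries at 10.8 to 28.4 RPKM, and 3 of the 4 lie below the line. Triploid EE2 replicate 4, at 25.9 RPKM, lies within that range.

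An earlier step, retinol to retinal against its reverse, can be read in the same way. Summed Rdh10 ran from 11.7 to 13.4 RPKM in diploid controls, 10.1 to 12.9 RPKM in triploid controls, 12.1 to 18.1 RPKM in diploid EE2 and 11.8 to 12.6 RPKM in triploid EE2. Summed Dhrs3 ran from 3.84 to 5.47 RPKM in diploid controls, 1.76 to 3.42 RPKM in triploid controls, 5.91 to 6.84 RPKM in diploid EE2 and 3.19 to 4.74 RPKM in triploid EE2. The forward sum exceeded the reverse sum in every library, and Dhrs3 was lower in triploid than in diploid libraries within each treatment with no overlap, apart from the titled outlier at 10.6 RPKM.

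The rest of the retinoid pathway was followed in lists of genes chosen with earlier results of these data known. Over all genes tested, 2.16% were called lower in triploid controls and 4.77% lower in triploids under EE2. With EE2 in diploids 1.94% were called higher. A list with 1 call of 20 is thus not set apart from all genes. Of 20 tested genes of uptake, binding and storage, bco2a, a carotenoid-cleaving oxygenase, was lower in triploid controls (log2 -0.75 ± 0.14, SE, adjusted p = 0.0059) and the other 19 were not called. The control difference lost its call with the titled outlier included (log2 -0.78, adjusted p = 0.074). Under EE2 bco2a was again lower in triploids (log2 -0.59, adjusted p = 0.03), a call lost in 5 of 7 omissions of a library (adjusted p up to 0.13) and with the titled outlier included (log2 -0.29, adjusted p = 0.66). The next smallest p in controls was that of the retinol-esterifying lratb.1 (log2 -1.36, adjusted p = 0.12). In diploids EE2 raised dgat1a, an acyltransferase that can esterify retinol, from 4.58 ± 1.85 to 14.6 ± 5.97 CPM (SD, n = 4 each; log2 1.66 ± 0.36, SE, adjusted p = 0.026). Omission of diploid control replicate 2, of control replicate 3, of diploid EE2 replicate 1 or of EE2 replicate 3 ended that call (adjusted p = 0.078, 0.062, 0.072 and 0.069). In triploids 0 of the 20 were called with EE2, with dgat1a at a log2 of 1.06 (adjusted p = 0.69).

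Of 21 other retinol and retinal dehydrogenases, 0 were called for ploidy in controls or for EE2 in either ploidy. The smallest p-values were those of adh8b for ploidy in controls (log2 -0.51, adjusted p = 0.12) and of rdh8a for EE2 in diploids (log2 1.32, adjusted p = 0.085) and in triploids (log2 0.98, adjusted p = 0.83). Under EE2 sdr16c5b, a short-chain dehydrogenase gene, was lower in triploids (log2 -0.67, adjusted p = 0.045), but with the titled outlier included its log2 change was 0.06 (adjusted p = 0.99). Receptors and cofactors, 19 genes, had 0 called for ploidy in controls or for EE2. Under EE2 the nuclear receptor cofactor nrip1a was lower in triploids (log2 -0.71, adjusted p = 0.023). With the titled outlier included its log2 change was -0.47 (adjusted p = 0.32). The calls of sdr16c5b and nrip1a were 1 of 21 and 1 of 19 genes, where 4.77% of all genes tested were called lower. Each was lost in 5 of 7 omissions of a library, all but those of diploid EE2 replicates 2 and 4, as was that of bco2a. In controls the retinoid X receptor rxrba had a log2 of 0.36 (adjusted p = 0.086). The retinoic acid receptor raraa had a log2 of -0.49 for ploidy in controls (adjusted p = 0.28), and rxrab had a log2 of -0.89 with EE2 in diploids (adjusted p = 0.063) and -0.87 in triploids (adjusted p = 0.5).

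The next list held 23 tested genes that retinoic acid controls in development, mostly transcription factors of body patterning. Under EE2, 6 were called lower in triploids than in diploids, 0 higher, and 17 were not called. The median log2 was -0.61, against 0.00 for all genes, of which 4.77% were called lower. The 6 were meis1b (log2 -0.95 ± 0.18, SE, adjusted p = 0.0062), meis2a (-1.05, adjusted p = 0.013), hoxb3a (-1.15, adjusted p = 0.022), pbx1a (-0.95, adjusted p = 0.026), hoxa3a (-0.99, adjusted p = 0.027) and hoxb5a (-1.46, adjusted p = 0.049). The level of meis1b was 39.6 ± 8.58 CPM in diploid EE2 (SD, n = 4) and 20.6 ± 1.2 CPM in triploid EE2 (SD, n = 3). The count was 2 without triploid EE2 replicate 1 or 4 or diploid EE2 replicate 1 or 3, and 1 without triploid EE2 replicate 3 or with the titled outlier included. In controls the median was -0.44 with 0 of 23 called, and nr2f5 had the smallest p (log2 -1.03, adjusted p = 0.074). With EE2 in diploids the median was 0.36 and hoxb3a alone was called higher (log2 1.03, adjusted p = 0.041), where 1.94% of all genes were. Of 8 omissions of a library, 6 ended the call (adjusted p up to 0.14), all but those of diploid EE2 replicates 2 and 4. The median with EE2 in triploids was -0.03 with 0 called. As given above, all 5 smooth muscle genes and 4 of 8 Sertoli cell genes were also called lower in triploids under EE2. Their part in the lower levels of these targets was not tested.

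**Figure D4:**
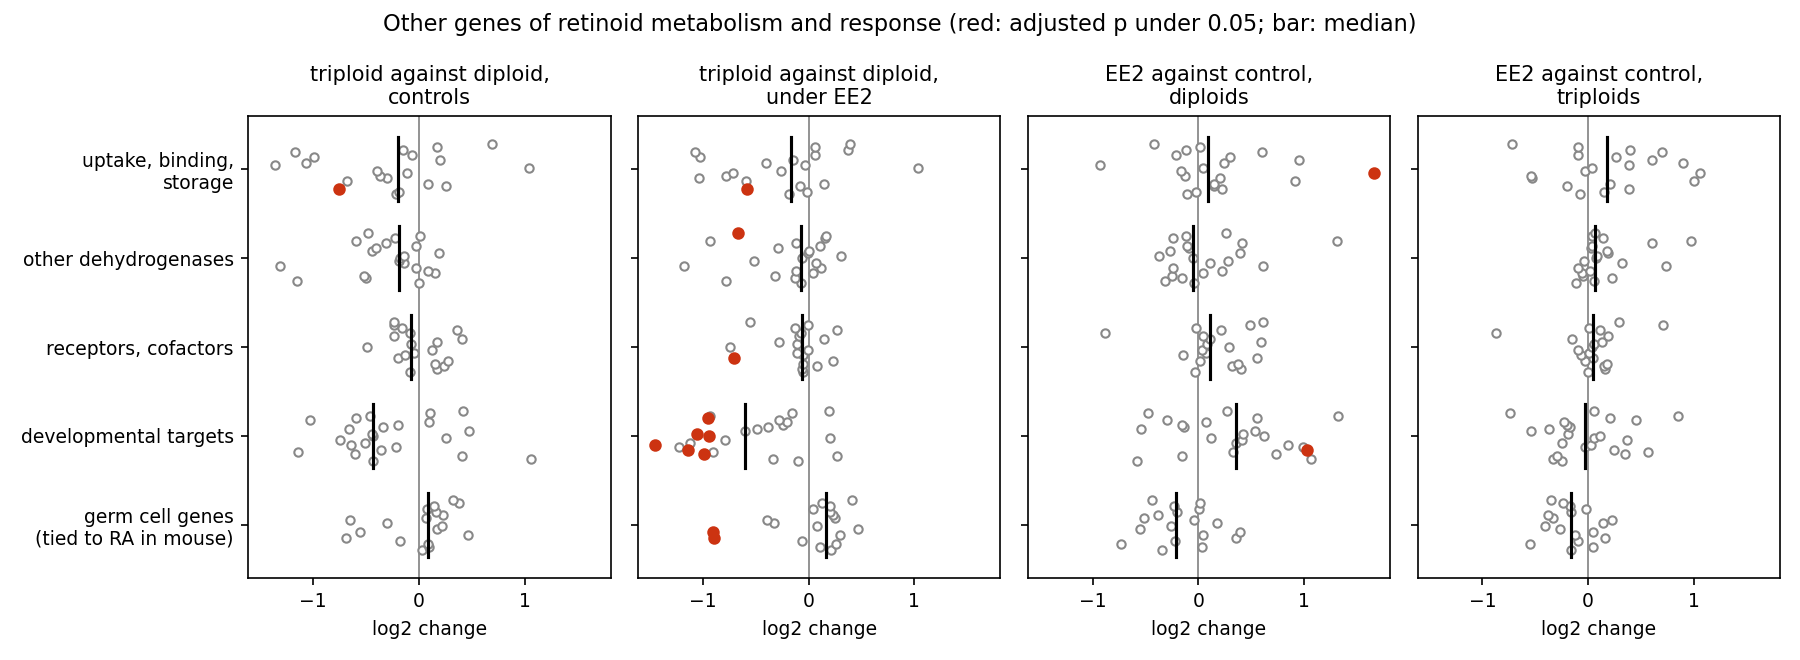
Log2 change of each tested gene in 5 lists of retinoid metabolism and response, in 4 comparisons from edgeR. Points are genes, red where the adjusted p is under 0.05, and black bars are list medians. Developmental targets show the most calls, 6 of 23, in triploids against diploids under EE2.

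Genes tied to retinoic acid in mouse germ cell development had 18 tested members. Under EE2 the growth factor receptor kita (log2 -0.89, adjusted p = 0.045) and its ligand gene kitlga (-0.91, adjusted p = 0.037) were lower in triploids and 0 were higher (median log2 0.16; 4.77% of all genes called lower). Of 7 omissions of a library, 4 ended the call of kita and 5 that of kitlga, as did the fit with the titled outlier included (log2 -0.55 for kita and -0.34 for kitlga, adjusted p = 0.46 and 0.8). Neither limma-voom (adjusted p = 0.056) nor edgeR without the low-count filter (adjusted p = 0.058) called kita. EdgeR also missed it with the replicate block (adjusted p = 0.062), the compared groups alone (adjusted p = 0.097) and both diploid replicates numbered 1 left out (adjusted p = 0.071). The call of kitlga was kept in these settings. Between ploidies under EE2, 4 of 8 Sertoli cell genes were called lower and 0 of the 8 germ cell markers were called. The part of these cell types in the lower kita and kitlga was not tested. In the other comparisons 0 of the 18 were called, with a median of 0.09 between the control groups, and of -0.21 and -0.16 for EE2 in diploids and in triploids. The meiotic recombinase gene dmc1 had the smallest p with EE2, at a log2 of -0.73 in diploids (adjusted p = 0.057) and -0.55 in triploids (adjusted p = 0.69).

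Finally, genes were ranked by likeness of pattern to the 3 members with the highest mean log2 CPM, over the 15 libraries and so across groups as well as within them. Closest to aldh1a2 was c7a, a complement component gene (Pearson r = 0.94), followed by entpd8 (0.89) and cst14b.1 (0.88). For cyp26a1 the closest were tp53i11a (0.80), pde6gb (0.79) and 1 gene with no symbol (0.78), and for rdh10b they were isg20 (0.87), diablob (0.85) and pdcd7 (0.84). These values are the highest among the genes tested and share libraries and scaling, so they are given as a description without a p-value.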

How the data were processed

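RNA was measured in 16 testis libraries, made strand-specifically after depletion of ribosomal RNA, per the labels' protocols. The deposited table holds counts, raw read pairs per gene. Per the file headers, the authors counted with featureCounts 2.0.6 on the reverse strand over exons, with the Ensembl 113 annotation of GRCz11, and STAR is named in the submitters' processing notes. The other deposited column, the summed exon bases of a gene (its length), was used for RPKM. Multi-mapped reads are left out by featureCounts by default, which can lower near-identical paralogs.

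Symbols came from the reference used for 29201 of 32520 genes. Symbols in capitals took the zebrafish form when RefSeq placed a gene so named on that chromosome, a paralog letter being allowed. Of 182 list symbols 164 were matched.

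Counts were tested with edgeR 4.0.16 in R 4.3.3: filterByExpr by group (23007 genes tested), TMM factors, 1 mean per group, robust glmQLFit and the quasi-likelihood F test, with p-values adjusted by Benjamini-Hochberg over all genes tested and called under 0.05. The code was tested on simulated data. Standard errors are the absolute log2 change over the square root of F, and 95% intervals use the t distribution with the fit's degrees of freedom. CPM and RPKM use TMM factors over all 16 libraries. Alternatives used DESeq2 1.42.0, limma-voom (limma 3.58.1), other filters, scaling and libraries. The labels do not say whether replicates are separate fish, so the p-values reflect library-to-library spread alone, which may be technical.

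The 10 members and the lists were chosen with earlier results of these data known. By the rule for named genes, the text may name all 10 members, list genes called in any comparison, the 2 genes of each list with the smallest p in it, and for the 3 members with the highest mean log2 CPM the 3 genes of most similar pattern. Replicates were checked for repeated libraries: the chi-square per degree of freedom of every pair was at least 7.67.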

Additional observations from a re-analysis of the deposited data

Results flagged for a closer look

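Values of the 10 genes were compared within each group of 4 libraries, 40 groups in all, the titled outlier included, for a library far from the others, by Dixon's test of the gap to the nearest library over the group's range. Chance alone flags about 1 in 20 such groups. Triploid EE2 replicate 2, the library titled an outlier, stood alone for dhrs3a at 10.3 CPM, with the rest of its group at 2.24 to 2.77 CPM, and for rdh10a at 22.7 CPM against 8.46 to 10.1 CPM. In that library the macrophage genes summed to 324 CPM, against 31.5 to 39.6 CPM in the other triploid EE2 libraries, and the Leydig cell genes to 70.1 CPM, against 178.5 to 322.8 CPM. Their part in these values was not tested. Diploid EE2 replicate 4 stood alone for rdh10b at 14.9 CPM against 12.6 to 12.9 CPM. Triploid control replicate 2 stood alone for cyp26c1 at 1.55 CPM against 0.733 to 0.843 CPM, where counts were 8 to 18 read pairs.

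The log2 ratio of summed Aldh1a to summed Cyp26 RPKM moved in opposite directions with EE2. With cyp26b1 alone as breakdown it did not. There aldh1a2 over cyp26b1 differed by -1.10 in diploids and by -0.34 in triploids, where the groups overlapped. Both values had 0.1 RPKM added to each gene, which shrinks the rise of cyp26b1 in them. By the sums, all 4 diploid EE2 libraries lay below the mean of the diploid controls, by -1.42 to -0.46 with a mean difference of -0.997. The groups overlapped, as EE2 replicate 3, at 0.89, was above control replicates 1 and 2, at 0.84 and 0.69. In triploids all 3 EE2 libraries fitted lay above the mean of the controls, by 0.77 to 1.56 with a mean difference of 1.27. There EE2 replicate 3 and control replicate 4 both stood at 0.52, and the titled outlier, at 0.16, was below that control. The difference between the ploidies was not tested, because the ratio is a score over members chosen with results known. The interactions of its main parts, aldh1a2 (adjusted p = 0.93) and cyp26a1 (log2 -0.94, adjusted p = 0.94), were not called by edgeR.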

How the results depend on the processing

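Over the settings other than leaving out 1 library, 0 of the calls of single members reversed. Of 390 values of single members 370 stayed on the same side of the threshold, 13 were lost and 7 gained. Most of the 370 were of changes not called in the main fit, which could not be lost. The 13 losses fell among the few calls of the main fit: 2 members for ploidy in controls and 1 in each other simple comparison. DESeq2 called more genes: 1190 and 2066 for ploidy in controls and under EE2, 1218 and 101 for EE2 in diploids and triploids, and 43 for the interaction, beside 630, 1338, 543, 24 and 0 by edgeR. It called 2 members for ploidy under EE2 and 3 for EE2 in each ploidy. The share of calls lower in triploid controls was 79.0% by edgeR and 67.5% by DESeq2. With limma-voom 10 genes were called for EE2 in triploids. Without the low-count filter 1 member was called for ploidy in controls and 0 for ploidy under EE2. With the titled outlier included the calls were 377, 484, 257 and 38 genes in the 4 simple comparisons (91.8% lower for ploidy in controls), 1 member for ploidy in controls, 0 for ploidy under EE2 and 1 developmental target, and sdr16c5b turned to a log2 of 0.06256 for ploidy under EE2. Fitting the compared groups alone gave 418 genes and 0 members for ploidy in controls, 193 genes for EE2 in diploids and 2 developmental targets. Leaving out both diploid replicates numbered 1, chosen after seeing the data, gave 1059 genes (56.3% lower) and 1 member for ploidy in controls and 1 gene for the interaction. The cause of these shifts was not tested.

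The log2 ratio of aldh1a2 to cyp26b1 alone, in place of the summed ratio, differed by -0.71 for ploidy in controls, 0.052 for ploidy under EE2 and -0.34 for EE2 in triploids, beside -1.60, 0.67 and 1.27 for the sums. Thus the mean difference with EE2 in triploids changed sign when cyp26b1 stood for breakdown, but the groups overlapped in that ratio. There 0.1 RPKM was added to each gene, which shrinks the differences of cyp26b1 in it, with EE2 and with ploidy. Added values of 0.01 and 1 RPKM were tried for the sums only.

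Replicate numbers did not pair the libraries: of 21 pairs of the same number, 2 had correlated deviations over 0.1 (range -0.17 to 0.14). With the replicate number as a block, 0 members were called for ploidy in controls, 0 for ploidy under EE2 and 0 for EE2 in triploids, where 4 genes were called, while cyp26b1 kept its call in diploids. Such a block uses up degrees of freedom, so calls can be lost with it, here and above, without any pairing.

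When each library was left out in turn, genes called ran from 350 to 740 for ploidy in controls, 592 to 1559 for ploidy under EE2, 254 to 656 for EE2 in diploids, 2 to 15 in triploids and 0 to 5 for the interaction. Members called ran from 0 to 2, 0 to 1, 1 to 1, 0 to 1 and 0 to 0 in the same order, and developmental targets from 1 to 6. The summed ratio ran from -1.85 to -1.40 for ploidy in controls, 0.53 to 0.92 for ploidy under EE2, -1.22 to -0.80 for EE2 in diploids and 1.12 to 1.53 for EE2 in triploids. Depth limits cyp26c1 and dhrs3a most, with 5 to 39 and 3 to 99 read pairs per library in the 15 fitted. It also limits cyp26b1, with 9 to 181.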
